A study of Mus musculus with 7 samples.

Results

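The ventral interneuron lineage genes *Dlx1*, *Dlx2*, *Dlx5*, *Dlx6*, *Gad1*, *Gad2*, *Lhx6*, *Sp8* and *Sp9*, were read out of RNA-Seq of sorted cells of the dorsal telencephalon, in which such genes should be low. They were chosen by symbol, through the Ensembl identifiers of the count table, and all 9 were found among its 38124 genes. In these cells 8 of the 9 were low, with 0 to 33 counts in any library. *Sp8* stood apart at 65 to 415 counts, and was lower in every library labelled Sox9 than in every control library.

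The cells came from the neocortex of heterozygous *Tis21*-CreERT2 mouse embryos at E15.5, electroporated in utero at E13.5, 48 hr before collection. In this line the CreERT2 coding sequence takes the place of exon 1 of *Tis21*, a gene of neurogenic progenitors, and tamoxifen, which all the embryos of both groups received, switches the recombinase on. Both constructs were driven by the ubiquitous CAGGS promoter, and Cre removed a floxed GFP cassette so that nuclear RFP was made, alone from the control construct (3 libraries, replicates 1, 2 and 4) or together with Sox9 from the conditional Sox9 construct (4 libraries, replicates 1 to 4). Cells with high RFP were sorted from pooled neocortex of several embryos, so that each library is a pool and not an embryo.

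The libraries held 4429704 to 12907778 counts, so that 3 counts correspond to 0.261 to 0.629 CPM, a unit in which counts are scaled to a common library size by the TMM method. *Sox9* itself, the gene on the construct, gave 362, 1026 and 668 counts in the controls and 370, 435, 277 and 177 in the libraries labelled Sox9. In CPM this was 63.9 ± 27.5 (SD, n = 3) against 40.0 ± 8.33 (SD, n = 4), with a log2 fold change of -0.68 (SE 0.25, edgeR adjusted p = 0.0493). This gene did not have more mRNA where the label says Sox9, and group names here are those of the labels. Other genes did differ between the groups, among them *Eomes*, which was lower with the Sox9 label, and *Olig1*, which was higher, with values given in their lists.

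GABAergic interneurons of the neocortex are not born in the dorsal telencephalon. They arise in the ganglionic eminences of the ventral telencephalon and migrate into the cortex tangentially. The homeobox factors Dlx1 and Dlx2 act early in ventral progenitors, and Dlx5 and Dlx6 follow them in the postmitotic cells. Lhx6 marks the lineage of the medial eminence, and Sp8 and Sp9 are zinc finger factors of the eminences. Gad1 and Gad2 make GABA from glutamate. Sp8 differs from the rest in that it is also expressed by dorsal cortical progenitors, where it takes part in patterning the cortical area map.

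Genes of the dorsal glutamatergic lineage were well expressed in these cells. *Neurod6*, a factor of dorsal neurons, gave 4486 ± 479 CPM in the controls (SD, n = 3) and 3492 ± 175 with the Sox9 label (SD, n = 4). *Emx1*, a factor of the dorsal telencephalon, gave 15.9 ± 0.668 in the controls. By contrast, *Nkx2-1*, which defines the medial eminence, had 7, 1 and 5 counts in the controls and 5, 2, 3 and 3 in the libraries labelled Sox9. *Gsx2*, which defines the lateral eminence, had 5, 1 and 1 counts and then 1, 2, 0 and 2. *Slc32a1*, which loads GABA into synaptic vesicles, had 2, 1 and 4 counts against 1, 1, 0 and 0. These 3 markers, named after their values were seen, were at 7 counts or fewer in every library, while other genes of ventral progenitors were called higher, as given with the wider set. Some genes of that set were abundant, such as *Meis2* at 166 ± 30.0 CPM and *Zeb2* at 243 ± 79.2 in the controls (SD, n = 3). In bulk samples of this kind, fewer cells of a type and less RNA per cell cannot be told apart.

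Levels of the 9 genes can be compared with each other only per length, in CPM per kilobase of exon. In the controls *Sp8* came first at 6.93 ± 1.66 CPM per kb (SD, n = 3), 27.2 times the next gene, *Gad2*, at 0.255 ± 0.0791. *Dlx5* (0.200), *Lhx6* (0.199), *Dlx2* (0.153), *Sp9* (0.149), *Dlx1* (0.122), *Gad1* (0.0740) and *Dlx6* (0.0378) followed. Only the gap below *Sp8* was wider than the SDs of the genes on either side of it, and none of the other 8 differed from its neighbour in the order beyond their spread.

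In the libraries labelled Sox9, *Sp8* was again first, at 2.68 ± 0.781 CPM per kb (SD, n = 4). It was only 4.22 times the next gene, which was here *Dlx5* at 0.635 ± 0.547. *Gad2* (0.515), *Lhx6* (0.365), *Dlx2* (0.296), *Sp9* (0.255), *Dlx1* (0.248), *Gad1* (0.163) and *Dlx6* (0.0966) came after *Dlx5*. Here too the gaps in the order below *Sp8* were within the spread of the genes on either side. The percentile of *Sp8* among the protein-coding genes went from 76.4 in the controls to 65.8. The other 8 genes lay between percentiles 18.9 and 41.1 in the controls and between 16.9 and 42.0 in the libraries labelled Sox9.

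A scale for such low values is given by the chemoreceptor genes, the odorant, vomeronasal, taste and trace amine receptors, which brain progenitors are not known to use. In the controls 6 of the 8 weak genes were above the 90th percentile of these receptors, with *Gad1* and *Dlx6* under it. In the libraries labelled Sox9 it was 4 of the 8, namely *Dlx5*, *Gad2*, *Lhx6* and *Dlx2*. The weak genes thus lay at the upper end of the values of genes that serve here as background.

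**Figure D1:**
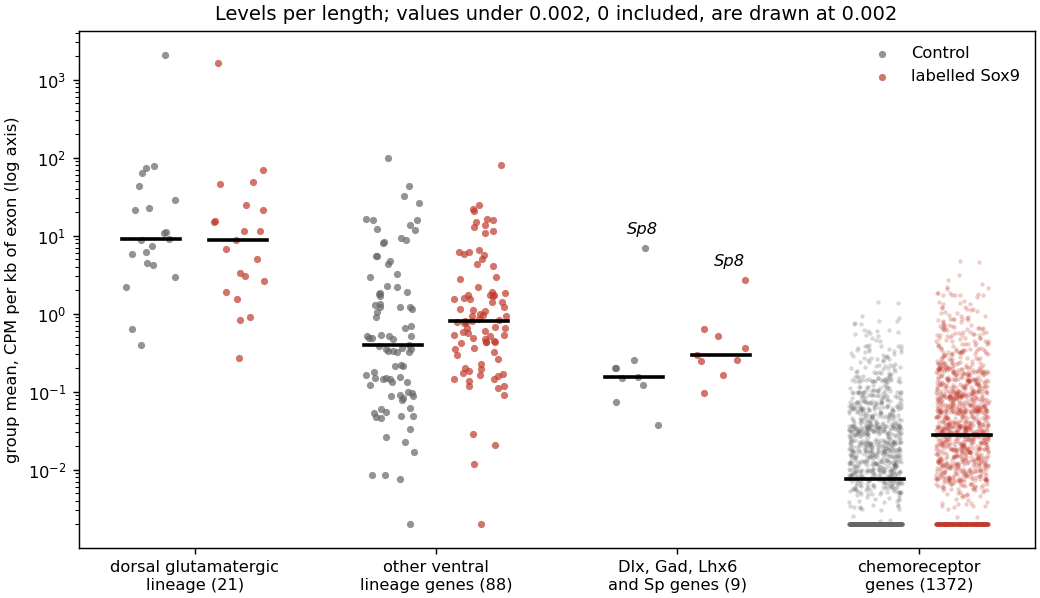
Level of each of the 9 genes per length, in CPM per kb of exon on a log axis, for the 3 control libraries and the 4 libraries labelled Sox9, beside the other ventral lineage genes, the dorsal glutamatergic genes and the chemoreceptor genes. Each point is the mean of a gene in a group and bars are medians, with values under 0.002 drawn at 0.002. *Sp8* alone is at several CPM per kb, and the other 8 members lie below 1 CPM per kb.

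*Sp8* gave 239, 415 and 352 counts in the controls and 87, 158, 65 and 70 in the libraries labelled Sox9. Scaled to depth, these were 22.8, 36.1 and 35.8 CPM against 11.9, 14.9, 7.27 and 14.7 CPM. The groups did not overlap, and the highest of the libraries labelled Sox9 was below the lowest control. The mean was 31.6 ± 7.56 CPM in the controls (SD, n = 3) and 12.2 ± 3.56 with the Sox9 label (SD, n = 4), a ratio of control to Sox9 of 2.59. The log2 fold change was -1.38 (SE 0.25, 95% confidence interval -1.90 to -0.85, edgeR adjusted p = 0.00149 over the 16522 genes tested).

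*Sp8* was the only one of the 5 genes tested that passed the threshold of an adjusted p of 0.01, and it did so in the lower direction. Over all genes tested, 3.43% were called lower and 11.3% higher. Its fall was called by DESeq2 as well, with a log2 fold change of -1.46 (adjusted p = 1.40e-06), and after cyclic loess normalization with limma, with -1.26 (adjusted p = 0.00894). The call also held with any single library left out. In FPKM, which in these tables follow the span of a gene with its introns, *Sp8* gave 4.61 ± 1.14 in the controls and 2.07 ± 0.566 with the Sox9 label.

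The members lie on 3 chromosomes of GRCm38. *Gad2* (chr2:22622205-22693874), *Lhx6* (chr2:36081953-36105408), *Gad1* (chr2:70553072-70602014), *Dlx1* (chr2:71528113-71533981), *Dlx2* (chr2:71543408-71546754) and *Sp9* (chr2:73271925-73284706) share chromosome 2, and *Dlx6* (chr6:6863334-6868568) and *Dlx5* (chr6:6877805-6882085) are neighbours on chromosome 6. *Sp8* lies on the plus strand of chromosome 12, at chr12:118846329-118852576. Its sequence just upstream is shown because it is the member whose level changed. RefSeq lists 3 starts of *Sp8*, and the most upstream is the start of the annotated gene. The 250 bases that precede it, chr12:118846079-118846328 on the plus strand, hold 1 CCAAT box, written in capitals.

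*Sp8* upstream: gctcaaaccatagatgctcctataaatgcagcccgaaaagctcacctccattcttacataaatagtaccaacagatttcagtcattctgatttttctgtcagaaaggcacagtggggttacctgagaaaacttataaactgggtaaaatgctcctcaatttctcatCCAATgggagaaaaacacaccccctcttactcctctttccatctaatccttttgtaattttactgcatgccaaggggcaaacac

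The stretch is 40.8% G and C. On both strands CCAAT was found in 33.8% of the 32851 promoter windows of the RefSeq table. The printed window held no AACAAT, a core of the sites that Sox factors bind, which is in 9.42% of all windows, and neither did those of the other 2 starts. It held no GC box, GGGCGG, which 32.7% of windows have, and no TAATTA, a homeobox core, which 4.84% have. The window of the second start held GGGCGG, and that of the most downstream start held TAATTA. These are matches of letters in a short window and say nothing of binding.

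*Gad2* had 13, 14 and 20 counts in the controls and 26, 33, 26 and 12 in the libraries labelled Sox9. In CPM these were 1.24, 1.22 and 2.03 against 3.57, 3.12, 2.91 and 2.52. The groups did not overlap once scaled to depth, although the shallowest library had fewer counts than any control. The mean was 1.5 ± 0.465 CPM (SD, n = 3) against 3.03 ± 0.440 (SD, n = 4). The log2 fold change of 1.02 (SE 0.40, 95% confidence interval 0.18 to 1.87) did not pass the threshold, with an edgeR adjusted p of 0.0599. After cyclic loess normalization it was 0.10 (limma adjusted p = 0.879).

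*Gad1*, the other GABA-synthesizing enzyme, had 10, 5 and 3 counts in the controls and 9, 7, 7 and 11 in the libraries labelled Sox9, or 0.565 ± 0.344 CPM (SD, n = 3) against 1.25 ± 0.749 (SD, n = 4). The groups overlapped, and the gene was removed by the filter on low counts. Without the filter its log2 fold change was 0.95 (SE 0.66, edgeR adjusted p = 0.317).

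Of the Dlx factors, *Dlx1* had 11, 6 and 4 counts in the controls and 13, 14, 5 and 8 in the libraries labelled Sox9. In CPM it went from 0.660 ± 0.344 (SD, n = 3) to 1.34 ± 0.555 (SD, n = 4), with overlapping groups. Its log2 fold change of 0.97 (SE 0.56, edgeR adjusted p = 0.200) did not pass, and turned to -0.58 after cyclic loess normalization (limma adjusted p = 0.462).

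*Dlx2*, its neighbour on chromosome 2, had 4, 6 and 4 counts against 8, 6, 6 and 5. In CPM it was 0.382, 0.521 and 0.407 in the controls and 1.10, 0.567, 0.671 and 1.05 with the Sox9 label, so that the groups did not overlap, but by a margin of less than 1 count. It was not tested with the filter, and without it the log2 fold change was 0.79 (SE 0.74, edgeR adjusted p = 0.469).

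*Dlx5* had 3, 3 and 8 counts in the controls and 23, 16, 4 and 3 in the libraries labelled Sox9. Replicates 1 and 2 with the Sox9 label, at 3.16 and 1.51 CPM, were above all other libraries, while replicates 3 and 4, at 0.447 and 0.629, lay within the range of the controls. Without the filter its log2 fold change was 1.58 (SE 0.66, edgeR adjusted p = 0.0654). *Dlx6*, which lies next to *Dlx5* on chromosome 6, had 1, 2 and 0 counts in the controls and 2, 0, 2 and 2 with the Sox9 label. All of its values were under 3 counts, and no change can be read from them at this depth.

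*Lhx6*, the medial eminence factor, had 9, 15 and 7 counts in the controls and 14, 20, 23 and 3 in the libraries labelled Sox9. This was 0.959 ± 0.308 CPM (SD, n = 3) against 1.75 ± 0.812 (SD, n = 4), and replicate 4 with the Sox9 label was below every control. The log2 fold change was 0.90 (SE 0.51, edgeR adjusted p = 0.184) and turned to -0.54 after cyclic loess normalization (limma adjusted p = 0.481).

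*Sp9*, the relative of *Sp8*, had 3, 11 and 10 counts against 7, 10, 12 and 9. It went from 0.753 ± 0.405 CPM (SD, n = 3) to 1.28 ± 0.442 (SD, n = 4), with overlapping groups. Its log2 fold change of 0.71 (SE 0.55, edgeR adjusted p = 0.333) turned to -0.67 after cyclic loess normalization (limma adjusted p = 0.355).

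**Figure D2:**
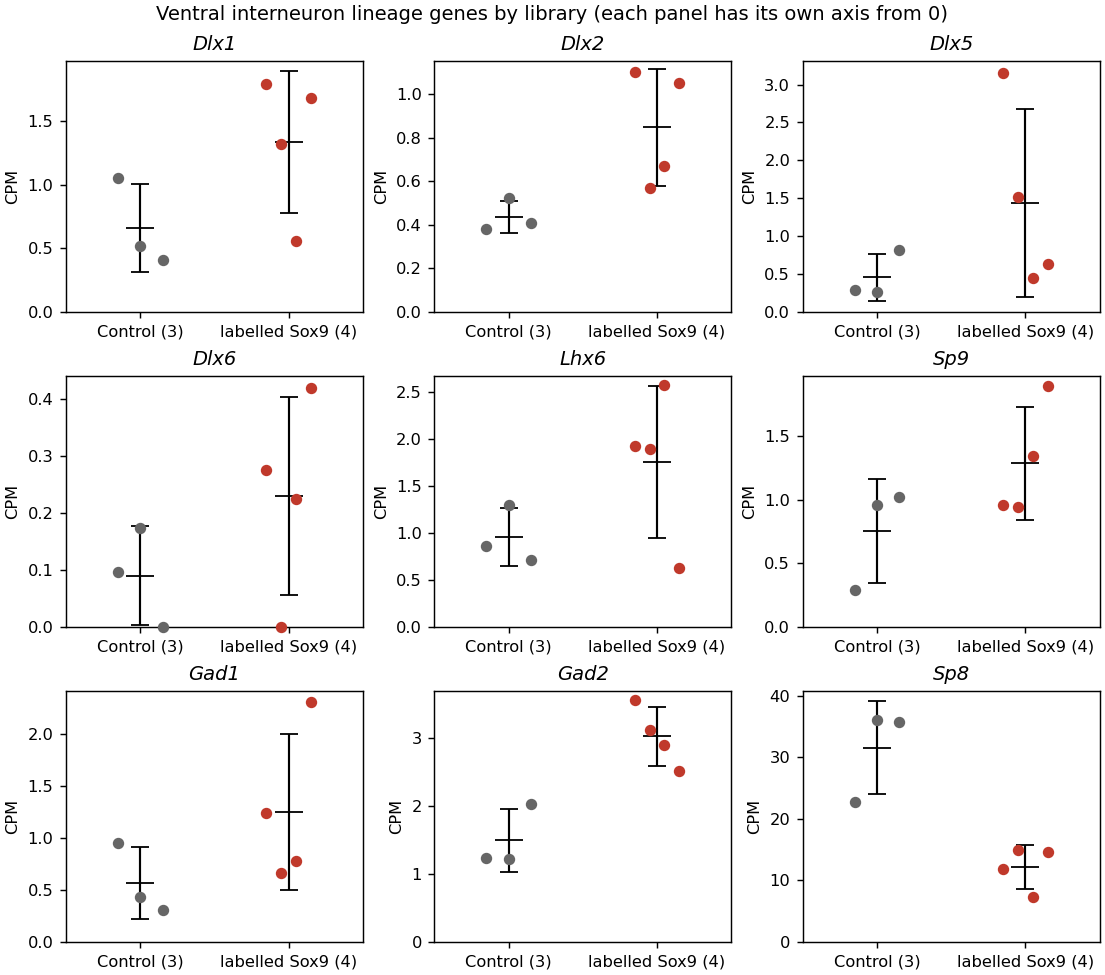
CPM of each of the 9 genes in each library, on a separate linear axis per gene starting at 0. Points are the 3 control libraries and the 4 libraries labelled Sox9, with the mean and SD of each group, and the groups do not overlap for *Sp8* (lower with the Sox9 label) and for *Gad2* and *Dlx2* (higher).

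No member was called higher by edgeR, and 1 of the 5 tested, *Gad2*, was higher at an unadjusted p under 0.05. Without the filter 2 of the 9 were, by DESeq2 1 of the 9, and by limma after cyclic loess normalization 0 of the 5, again with none called higher. Among the 5 tested, *Gad2* was above and *Sp8* below every control in all the libraries labelled Sox9. Over all genes tested, the groups were apart in this way for 22.9% in the higher direction and 16.4% in the lower one, so that neither count is far from the background.

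Summed over the 8 weak genes, the counts were 54, 62 and 56 in the controls and 102, 106, 85 and 53 in the libraries labelled Sox9. In CPM the sum was 5.16 to 5.70 in the controls and 9.50 to 14.0 with the Sox9 label, 2.06 times higher on average, and the groups did not overlap. *Sp8* went the other way, and its CPM fell from 4.43, 6.69 and 6.29 times this sum in the controls to 0.853, 1.49, 0.765 and 1.32 times.

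All 8 weak genes had a higher mean CPM in the libraries labelled Sox9, as did most genes of like level. Over the whole count table and with no filter, a comparison added after the data were seen, 10803 other genes had a mean CPM, averaged over the groups, between those of the weak genes, 0.160 to 2.26. Of these, 86.7% had a higher mean with the Sox9 label, and their summed CPM went from 4630 to 5407 in the controls to 9558 to 12841, 2.29 times higher on average, beside 2.06 times for the weak genes. The summed CPM of all chemoreceptor genes, again with no filter, was 3.02 times higher.

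Among the 3120 genes that passed the filter with an average log2 CPM of 0.27 to 1.35, the range of the 4 weak genes tested, 683 were called higher and 5 lower. Near its limit the filter keeps genes that are high in either group alone, so that these calls are partly set by it and are given as a description. After cyclic loess normalization, which centres genes of each level separately, 5 of these genes were called higher and 53 lower. It turned 3 of the 4 weak genes tested, *Dlx1*, *Lhx6* and *Sp9*, to negative values.

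**Figure D3:**
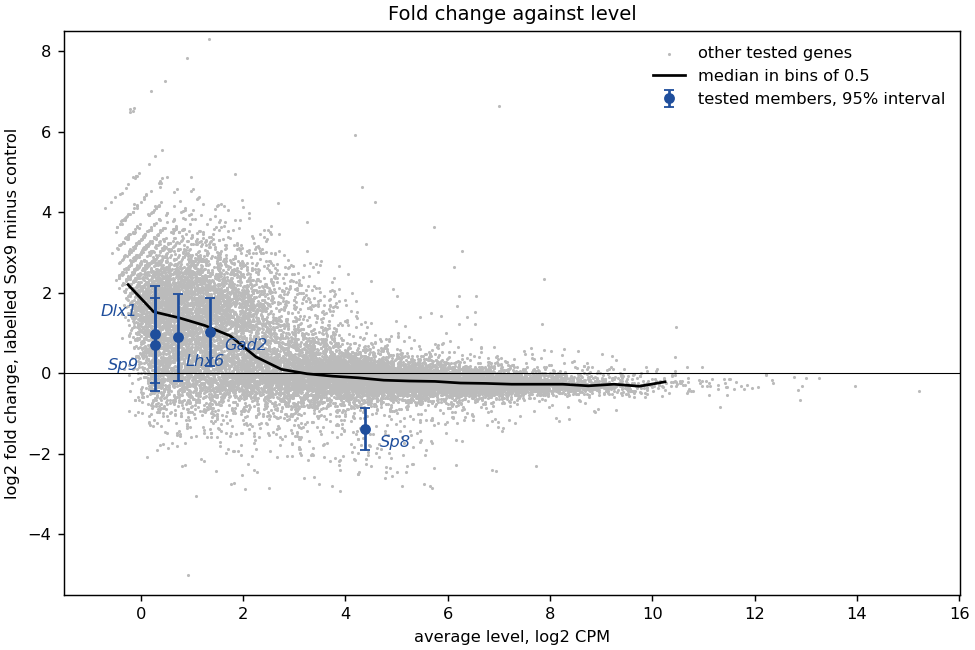
Log2 fold change (labelled Sox9 minus control) against the average log2 CPM of the genes tested, with the 5 tested members marked with their 95% confidence intervals and a line for the median in bins of 0.5. Only genes that passed the filter on low counts are drawn, which bears on the median at low levels. The 4 weak members tested lie between 0.71 and 1.02, and *Sp8* is at -1.38.

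**Figure D4:**
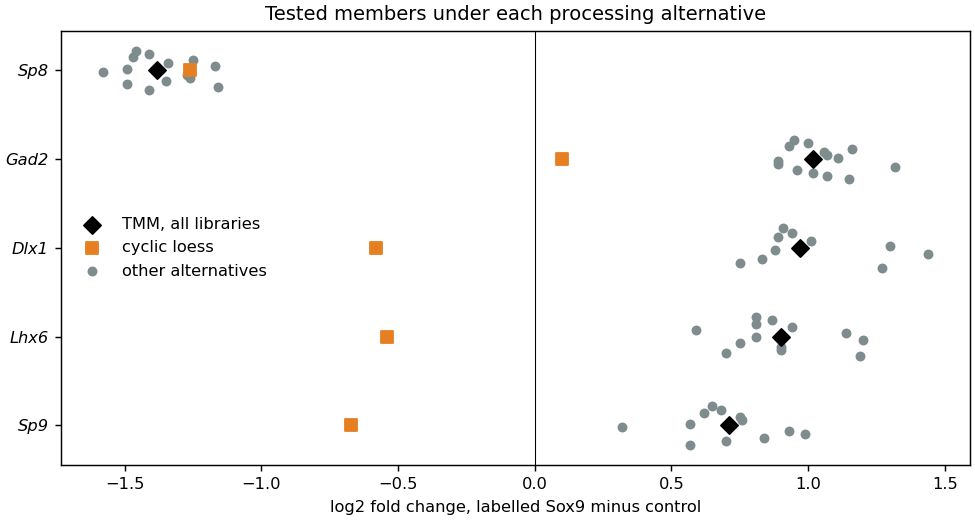
Log2 fold change of the tested members (labelled Sox9 minus control) under each alternative, with TMM on all libraries as diamonds, cyclic loess as squares and the others as circles. *Sp8* stays between -1.58 and -1.16, while *Dlx1*, *Lhx6* and *Sp9* cross 0 after cyclic loess normalization.

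Several members share their place in the genome with a transcript of the other strand, and the sources used here do not say that reads were counted by strand. *Dlx1as* covers the whole of *Dlx1* and had 6, 9 and 20 counts in the controls and 10, 15, 13 and 11 in the libraries labelled Sox9. *Dlx6os1*, a long noncoding RNA of the Dlx5 and Dlx6 locus, covers *Dlx6* and had more counts than it, with 2, 10 and 3 against 19, 11, 34 and 8. Its log2 fold change of 2.27 (SE 0.62) missed the threshold, with an edgeR adjusted p of 0.0140. *Dlx6os2*, which lies within *Dlx6*, had 0, 1 and 1 counts against 3, 3, 1 and 2. *Gad1os*, which overlaps *Gad1*, had 0 counts in the controls and 0, 1, 4 and 2 with the Sox9 label, and *Cir1*, which overlaps *Sp9*, had 39 to 130 counts. These overlaps are of whole gene spans, introns included, and the overlap of exons was not measured. Without strand, reads in any exon stretch that 2 such genes share cannot be told apart. The overlap of spans takes in all of *Dlx1* and *Dlx6*, but only 10286 bases of *Gad1* and 1602 of *Sp9*. No annotated gene overlapped *Sp8*, *Dlx2* or *Dlx5*, and *Gad2* and *Lhx6* overlapped only small RNA genes within them.

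A wider set of 88 genes of ventral identity, interneurons and GABA handling was described in the same way. Of these 66 were tested, 16 (24.2%) were called higher and 3 (4.55%) lower, beside 11.3% and 3.43% of all genes tested and 21.9% called higher among tested genes of the weak members' level. The median log2 fold change was 0.34, against -0.00 over all genes. The filter removed 22 genes of the set, and near its limit it keeps genes that are high in either group alone. Counts of calls in this set and in the lists below are thus partly set by it. Leaving out control 1, 2 or 4, or replicate 1 or 3 with the Sox9 label, lowered the 16 to 7, 4, 7, 6 and 6. After cyclic loess normalization 1 of the 66 was called higher and 3 lower, and over all genes the calls went from 1862 higher and 567 lower to 363 and 284. The lists overlap with those given further on. *Olig1* and *Olig2* are also oligodendrocyte precursor markers, and *Cux2* and *Bcl11b* are also in the dorsal list.

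Among the relatives of the Dlx members, *Dlx3*, which is better known from placenta and skin, had 5, 2 and 1 counts in the controls and 16, 19, 13 and 8 in the libraries labelled Sox9 and was called higher, with a log2 fold change of 2.76 (SE 0.59, edgeR adjusted p = 0.00395). After cyclic loess normalization it was 0.69 (limma adjusted p = 0.316). Of 5 such relatives 3 were tested and 1, *Dlx3*, was called.

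Of 12 ventral progenitor factors, 5 were tested and 3 (60.0%) called higher. This stands beside 11.3% of all genes tested and 21.9% of those of the weak members' level. The other 7 did not pass the filter on low counts. *Six3*, a homeobox factor of the anterior forebrain, went from 0.667 ± 0.225 CPM (SD, n = 3) to 4.43 ± 1.84 (SD, n = 4), a log2 fold change of 2.73 (edgeR adjusted p = 0.00138). *Olig1*, a factor of the oligodendrocyte lineage, had at most 3 counts in any control and 11 to 18 with the Sox9 label, at least 6.99-fold higher (edgeR adjusted p = 0.00154).

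Of 11 genes of the medial eminence lineage, 7 were tested. *Npas1*, a bHLH-PAS factor, was called higher, going from 0.643 ± 0.353 CPM (SD, n = 3) to 3.64 ± 1.76 (SD, n = 4) (log2 fold change 2.51, edgeR adjusted p = 0.00453). *Cux2*, which also marks upper-layer neurons, was called lower, from 438 ± 117 CPM (SD, n = 3) to 246 ± 44.2 (SD, n = 4), and it was by far the most abundant of these genes. Of 18 genes of the lateral and caudal eminences, 17 were tested and 2 called higher, *Ikzf1* and *Zfp503*. *Ikzf1*, a zinc finger factor also used by blood cells, went from 3.00 ± 0.661 CPM (SD, n = 3) to 9.99 ± 3.94 (SD, n = 4), with an edgeR adjusted p of 0.00310.

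Of 9 pan-interneuron factors, 8 were tested by edgeR and none was called, with 1 higher and 3 lower at an unadjusted p under 0.05. DESeq2 and limma after cyclic loess normalization each called none higher and 1 lower, and edgeR without the filter called 1 higher and 2 lower.

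GABA handling gave 3 genes called higher and 1 lower of 9 tested. *Abat*, the enzyme that breaks GABA down, was called lower, from 24.7 ± 3.61 CPM (SD, n = 3) to 11.8 ± 2.30 (SD, n = 4), a log2 fold change of -1.08 (edgeR adjusted p = 0.00206). The GABA transporters *Slc6a11* and *Slc6a13*, which are known from glia and from meninges, were called higher. *Slc6a11* went from 1.67 ± 0.208 CPM (SD, n = 3) to 7.16 ± 3.58 (SD, n = 4), and *Slc6a13* from 0.642 ± 0.429 to 3.16 ± 0.960.

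Of 13 guidance and migration receptors, all were tested, 3 were called higher and 1 lower. *Nrp2*, a semaphorin receptor, was the only gene of the wider set called higher also after cyclic loess normalization. It gave 71, 69 and 43 counts in the controls and 195, 199, 100 and 78 with the Sox9 label (log2 fold change 1.67, edgeR adjusted p = 0.00135; 1.58 after cyclic loess normalization, limma adjusted p = 0.00345). *Epha4*, an ephrin receptor, was called lower, from 256 ± 39.3 to 167 ± 33.9 CPM. Of 15 products of interneuron subtypes 7 were tested and 3 called higher. *Reln*, which is also made by Cajal-Retzius cells, went from 5.11 ± 1.61 CPM (SD, n = 3) to 12.7 ± 3.74 (SD, n = 4), with an edgeR adjusted p of 0.00541. *Sst*, a marker of interneurons of the medial eminence, had 0, 13 and 0 counts in the controls and 15, 0, 0 and 1 in the other libraries, so that 1 library of each group held nearly all of its counts.

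The genes of the dorsal glutamatergic lineage that were called had the direction of *Sp8*. All 21 were tested, none was called higher and 6 (28.6%) were called lower, beside 11.3% and 3.43% of all genes tested. The median of their log2 fold changes was -0.43. At an unadjusted p under 0.05, 1 was higher and 13 lower, and DESeq2 called none higher and 8 lower. The count of 6 was 2 without control 2, 3 without replicate 4 with the Sox9 label, and 2 after cyclic loess normalization. *Eomes*, the factor of intermediate progenitors, went from 37.5 ± 10.7 CPM (SD, n = 3) to 7.86 ± 1.63 (SD, n = 4), a log2 fold change of -2.25 (edgeR adjusted p = 4.87e-05). *Neurod4*, a proneural factor, went from 7.31 ± 0.580 CPM (SD, n = 3) to 0.907 ± 0.951 (SD, n = 4), a log2 fold change of -2.88 (edgeR adjusted p = 0.00182). *Emx1* was not called, with a log2 fold change of -0.12 (edgeR adjusted p = 0.661).

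Within the families of the members, none of the other Sp factors was called by edgeR, among 4 tested of 7, with 0 higher and 1 lower at an unadjusted p under 0.05 and none called by DESeq2, without the filter or by limma after cyclic loess normalization. That 1 was *Sp3*, at 51.4 ± 5.17 CPM in the controls (SD, n = 3) and 39.2 ± 3.82 with the Sox9 label (SD, n = 4). Among the other LIM homeobox factors, the family of *Lhx6*, 6 of 11 were tested and 2 called higher, *Lhx4* and *Isl2*. *Lhx4*, known from motor neurons and the pituitary, had 8 to 13 counts in the controls and 36 to 127 with the Sox9 label. Its log2 fold change of 3.47 (SE 0.36, edgeR adjusted p = 4.87e-05) remained 2.69 after cyclic loess normalization (limma adjusted p = 2.59e-04), where the 4 weak members tested were at 0.10 or below.

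The summed CPM of markers of other cell types also moved with the label, beside the weak members. The oligodendrocyte precursor markers summed to 1.05 to 1.56 CPM in the controls and 11.7 to 31.2 with the Sox9 label, with 5 of 6 tested called higher. Of these, *Pdgfra* had 3, 1 and 2 counts in the controls and 74, 52, 28 and 34 with the Sox9 label, and *Olig2* was at 0 in 2 of the 3 controls. The sums of the endothelial markers were 6.12 to 15.6 and then 20.1 to 54.3 CPM, with 2 of 8 called higher. Those of the mural and meningeal markers were 10.7 to 12.7 and then 20.7 to 40.0 CPM, with 2 of 9 called higher. *Cspg4* is counted as called both there and among the oligodendrocyte precursor markers. The endothelial genes called were the VEGF receptors *Flt1*, from 1.54 ± 0.339 CPM (SD, n = 3) to 8.86 ± 5.02 (SD, n = 4), and *Kdr*, from 1.19 ± 0.536 to 5.18 ± 0.585. The groups overlapped for the erythroid markers, at 2.39 to 25.2 against 16.2 to 95 CPM with 1 of 6 called higher, and for the microglia markers, at 16.5 to 50.7 against 21.2 to 86.0 with 1 of 10 called higher. None of the 12 pan-neuronal genes was called by edgeR, by DESeq2 or by limma after cyclic loess normalization, with 0 higher and 4 lower at an unadjusted p under 0.05 in edgeR and 4 higher and 1 lower in limma, and 2 were called lower by edgeR without the filter. After cyclic loess normalization, limma called *Pdgfra* higher and none of the other markers of these non-neuronal lists. Of all genes tested by edgeR 11.3% were called higher, and 21.9% of those of the weak members' level. The filter on low counts partly sets the counts of calls here too. The endothelial and the mural and meningeal sums were 3.41 and 2.71 times higher on average, beside 2.29 times for all genes of the weak members' level and 3.02 times for the chemoreceptor genes. The part of these cell types in the values of the 9 genes was not tested.

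The summed CPM of the 9 genes, to which *Sp8* gave 31.6 of 37.0 in the controls, varied within the groups most like the CPM of *Psmd12*, *H2afz*, *Sat2*, *Rpa2* and *Hsd17b10*, with a Pearson r of 0.99 each over the 7 libraries and among 9414 genes searched. For *Sp8* alone the genes most like it were others, *Rps29*, *Foxo3*, *Etfa*, *Psmg2* and *Exosc8*, with r of 0.98 to 0.99. With so few libraries this is a description only.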

How the data were processed

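The authors made the libraries from sorted High RFP cells with poly-dT priming and PCR amplification. STAR 2.5.2b is named in the submitters' processing notes. The deposited tables hold raw whole-number counts by Ensembl identifier and FPKM values. The program that counted reads, and whether it used strand, are not given in the sources used here. The length behind the deposited FPKM was within 2% of the gene's span for 91.8% of 6894 genes.

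Symbols, exonic lengths and coordinates came from GENCODE vM21 (GRCm38), and the promoter from the RefSeq table (GRCm38.p6), in which 7 of the 9 members were found. The main test was edgeR's two-sided quasi-likelihood test (version 4.0.16, R 4.3.3) with TMM, filterByExpr defaults and no covariate, on 16522 genes with Benjamini-Hochberg adjustment and a threshold of 0.01. CPM are counts over TMM-scaled library sizes. P-values weigh the group difference against the spread between these libraries, which are pools and not single embryos. No molecular identifiers were used, so floors of 3 counts cover counting error only. Fits were tested on simulated data.

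Alternatives were DESeq2 (the study's tool, run here in version 1.42.0), its size factors, cyclic loess with limma 3.58.1, other filters and thresholds, the replicate number as a block, and leaving out each library. Members and lists were chosen with earlier results of these data known. The text names all members, the genes of the other strand that overlap them, *Sox9*, *Eomes* and, from each list, up to 2 called genes per direction by p and up to 2 abundant ones. Other lineage markers were named after their values were seen. A few genes of the lists are not reported here.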

Additional observations from a re-analysis of the deposited data

How the results depend on the processing

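In all 16 alternatives *Sp8* was called lower, with log2 fold changes of -1.58 to -1.16, and no other member was called. Cyclic loess normalization turned *Dlx1* to -0.58, *Lhx6* to -0.54 and *Sp9* to -0.67, and the cause was not tested. *Dlx2*, *Dlx5*, *Dlx6* and *Gad1* were removed by the filter on low counts.

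Counts of calls moved more. For all genes (1862 higher and 567 lower), DESeq2 gave 1391 lower, cyclic loess 363 higher and 284 lower, no filter 1452 lower, at least 10 counts in every library 638 higher and 204 lower, and an adjusted p under 0.05 gave 3616 higher and 1787 lower. For the wider ventral set (16 higher and 3 lower), DESeq2 gave 6 lower, cyclic loess 1 higher, no filter 8 lower, at least 10 counts 8 higher and 1 lower, and an adjusted p under 0.05 gave 10 lower. For the dorsal list (6 lower), cyclic loess gave 2, no filter 12 and at least 10 counts 1.

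With single libraries left out, the counts ranged from 827 to 1590 higher and 208 to 475 lower for all genes, from 4 to 14 higher and 0 to 5 lower for the ventral set, and from 2 to 6 lower for the dorsal list. Control 2 gave the lowest value of each of these 5 ranges.

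The replicate numbers are not known to pair the libraries, since same-numbered libraries correlated at -0.036, 0.118 and -0.005 (title numbers). With a replicate block by titles, 400 genes were higher and 218 lower, and 3 and 1 of the ventral set. With a replicate block by descriptions, 1034 were higher and 353 lower, and 7 of the ventral set were higher. *Sp8* was called in both.

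Depth limits the weak members, of which none exceeded 33 counts in a library.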
